A study of Mus musculus with 9 samples.

Results

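Skeletal muscle transcripts were followed in RNA from mouse spinal cord. The set held 34 genes of the sarcomere, of calcium handling and of energy supply in fast and slow muscle fibres, listed by symbol, and all 34 were found among 40879 gene symbols. The 9 libraries, 3 a group, all came from wild-type (WT) mice. The naive group served as control. In the remaining groups experimental autoimmune encephalomyelitis (EAE), an immune attack on myelin that models multiple sclerosis, was treated with vehicle only or with GV1001, which is a telomerase-derived peptide. Strain, age, sex, dose, time point, inducing antigen and disease score are not given in the sources used here. Nor is it stated that replicates were separate animals, so p-values measure the spread between these libraries, which may be technical.

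Skeletal muscle contracts when myosin in the thick filament pulls on actin in the thin filament. Calcium released from the sarcoplasmic reticulum starts this by binding troponin on the thin filament, and calcium pumps end it. Fast and slow fibres use different members of the same protein families, so transcripts of the contractile genes differ by fibre type. The spinal cord lies inside the vertebral column, which is wrapped in back muscle, and has no muscle fibres of its own apart from the smooth muscle of vessels, although neurons and glia express some of these genes.

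Total counts ranged from 5247246 to 6174870 per library. Levels are given in CPM, a gene's counts scaled to the library's total count. The kit reads the 3′ end of each transcript, so counts were not divided by gene length, and levels are compared between libraries, not between genes. A level of 3 counts corresponded to 0.486 to 0.572 CPM and was taken as the limit that a count of 0 allows, which covers counting error only. Cord markers were high in all 9 libraries, with summed levels of 3269 to 4859 CPM for 7 neuronal genes, 3010.2 to 4383 CPM for 4 astrocyte genes, 11850 to 18237 CPM for 5 oligodendrocyte genes and 95.6 to 713 CPM for 4 microglial genes.

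The promoters of the fast myosin heavy chain genes Myh2, Myh1 and Myh4, which are neighbours on chromosome 11, are shown first, since these close copies were spread over the libraries in different ways. That of the creatine kinase gene Ckm is shown beside them, each from 250 bases before to 50 bases after the start of the gene, 5′ to 3′, from RefSeq on GRCm38.p6, while the counts were made on GRCm39. Capitals mark TATAAA on the printed strand and CAGCTG, a form of the E box bound by muscle regulators of the MyoD family.
Myh2, chr11:67170777-67171076, plus strand: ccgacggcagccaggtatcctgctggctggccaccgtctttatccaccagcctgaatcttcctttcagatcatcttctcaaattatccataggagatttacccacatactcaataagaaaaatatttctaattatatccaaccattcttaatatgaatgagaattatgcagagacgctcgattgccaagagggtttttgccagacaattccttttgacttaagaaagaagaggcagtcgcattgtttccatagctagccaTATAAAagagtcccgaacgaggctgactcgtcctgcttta
Myh1, chr11:67199852-67200151, plus strand: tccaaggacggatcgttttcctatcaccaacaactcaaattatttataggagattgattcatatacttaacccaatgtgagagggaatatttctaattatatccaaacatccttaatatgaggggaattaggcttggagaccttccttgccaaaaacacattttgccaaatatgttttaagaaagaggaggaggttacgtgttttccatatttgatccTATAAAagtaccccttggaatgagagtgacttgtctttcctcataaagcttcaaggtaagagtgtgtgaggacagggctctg
Myh4, chr11:67237562-67237861, plus strand: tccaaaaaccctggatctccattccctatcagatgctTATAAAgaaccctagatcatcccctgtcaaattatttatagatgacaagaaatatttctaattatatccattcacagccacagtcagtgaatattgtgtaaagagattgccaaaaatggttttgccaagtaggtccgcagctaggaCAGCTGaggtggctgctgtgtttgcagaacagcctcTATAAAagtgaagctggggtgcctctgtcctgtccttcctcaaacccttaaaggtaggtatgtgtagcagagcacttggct
Ckm, chr7:19410844-19411143, plus strand: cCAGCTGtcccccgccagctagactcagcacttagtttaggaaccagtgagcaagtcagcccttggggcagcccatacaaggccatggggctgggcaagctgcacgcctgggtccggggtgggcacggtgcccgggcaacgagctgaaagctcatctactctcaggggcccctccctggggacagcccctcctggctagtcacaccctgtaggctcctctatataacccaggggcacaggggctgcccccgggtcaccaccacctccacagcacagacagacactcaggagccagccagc
The Myh4 window held 1 CAGCTG and 2 TATAAA matches, while the Myh1 and Myh2 windows each held 1 TATAAA and 0 CAGCTG. Ckm had 1 CAGCTG and 0 TATAAA. Promoter windows were found for 26 of the 34 genes. CAGCTG, which reads the same on both strands, occurred in 13 of the 26 and in 18.3% of 27025 genes with such a window. The 13 were Acta1, Atp2a1, Casq1, Ckm, Eno3, Mb, Mybpc1, Myh4, Myl1, Mylpf, Pygm, Tnni1 and Tpm2. TATAAA on either strand occurred in 7 of the 26 and in 15.7% of all genes. A match describes the letters only.

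Muscle transcripts were found in every library, at very different levels. Between 32 and 34 of the 34 genes had a count in each naive and vehicle library, and all 34 did in each GV1001 library. Together they took 0.0391%, 0.0393% and 0.0756% of the counts of naive replicates 1, 2 and 3. Vehicle replicates followed with 0.0494%, 0.126% and 0.0382%. With GV1001 the share was 0.735%, 0.227% and 0.104%. GV1001 replicates 1 and 2 lay above all other libraries, and vehicle replicate 2 lay above GV1001 replicate 3, so the groups overlapped. In bulk RNA, fewer muscle cells and less muscle RNA per cell cannot be told apart.

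Part of this sum was present in every cord. In all, 6 genes were at 5 CPM or more in all 9 libraries, a limit chosen after the values were seen. These were the tropomyosin Tpm1 (lowest level 174 CPM), the glycogen phosphorylase Pygm (51.9 CPM), the tropomyosin Tpm2 (16.3 CPM), the enolase Eno3 (11.4 CPM), the slow troponin I Tnni1 (7.9 CPM) and the giant spring protein titin, Ttn (7.5 CPM). Acta1, with a lowest level of 4.66 CPM, lay just outside. The other 28 genes summed to 56.5, 63.5 and 337 CPM in the naive libraries. Vehicle libraries had 181, 699 and 52.8 CPM of them, and GV1001 libraries 5447, 1503 and 547 CPM. For these 28 genes vehicle replicate 3 was the lowest library and GV1001 replicate 1 the highest.

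**Figure D1:**
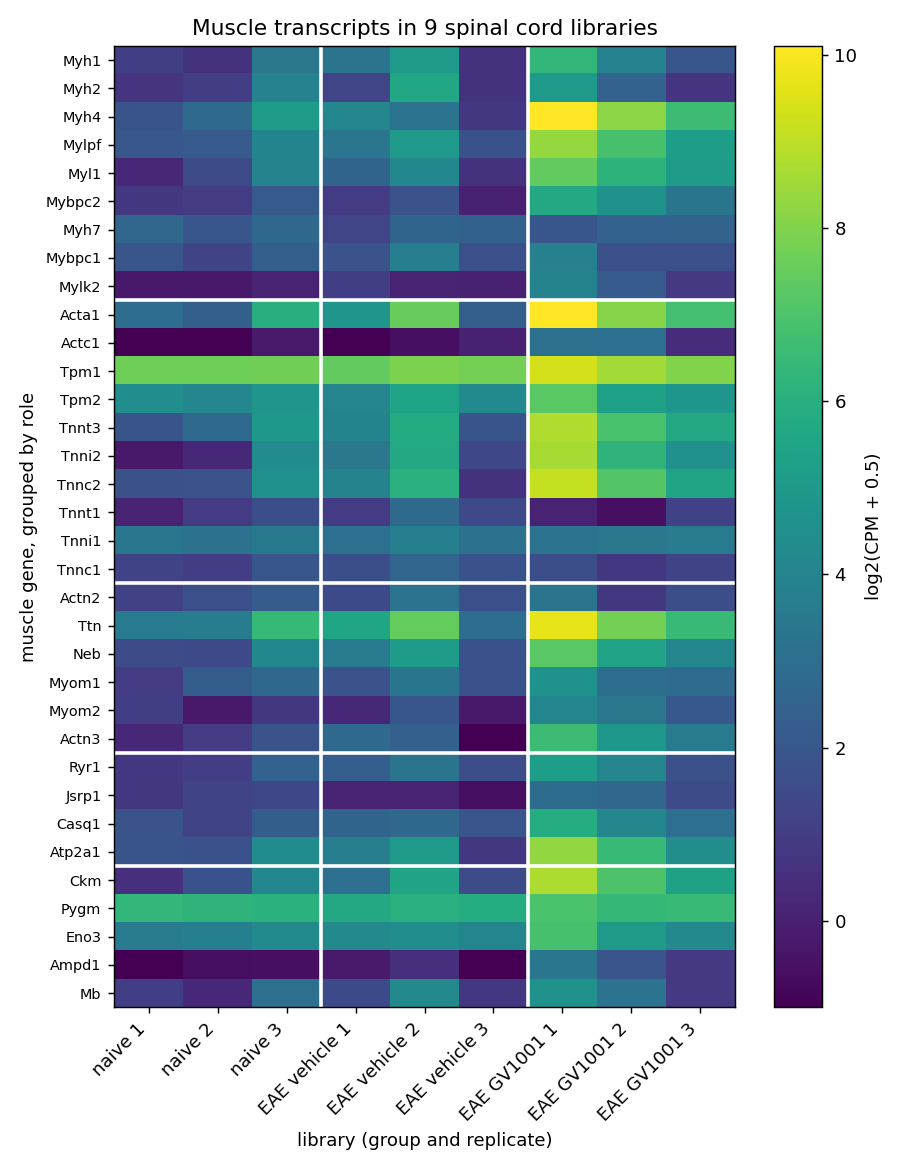
Heat map of log2(CPM + 0.5) for the 34 muscle genes (rows, grouped by role, white lines between roles) in the 9 libraries (columns, white lines between groups). Most rows are brightest in GV1001 replicate 1, with 29 of 34 genes highest there, while Tpm1 and Pygm are bright in every library and Tnni1 stays between 7.9 and 13.5 CPM.

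The genes moved from library to library largely as a block. GV1001 replicate 1 had the highest level of 29 of the 34 genes, vehicle replicate 2 of 4 (Myh2, Tnnt1, Tnni1 and Tnnc1) and naive replicate 3 of 1 (Myh7). Within groups, 28 of 34 genes fell in the order GV1001 replicate 1, 2 and 3 from high to low. Vehicle replicate 2 was the highest vehicle library for 30 of 34 genes, and naive replicate 3 the highest naive library for 32. Vehicle replicate 2 exceeded GV1001 replicate 3 for 21 of 34.

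Myosin heavy chains, the motors of the thick filament, were spread unequally over the libraries. Myh4 encodes the motor of the fastest, glycolytic fibres. It was at 3.21, 6.56 and 33.2 CPM in the naive libraries, 16.9, 8.96 and 1.22 CPM in the vehicle libraries, and 1099.8, 284 and 97.7 CPM in the GV1001 libraries. All 3 GV1001 libraries lay above all 6 others. The group means were 14.3 ± 16.4, 9.02 ± 7.83 and 494 ± 533 CPM (SD, n = 3). The log2 fold change of GV1001 against vehicle was 5.77 ± 1.07 (SE), with an adjusted p of 0.528 in the edgeR quasi-likelihood test over all genes and 0.0142 in DESeq2. Without GV1001 replicate 1 the log2 fold change was 4.40.

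Myh1 and Myh2, the motors of intermediate and oxidative fast fibres, were distributed otherwise. Myh2 was at 1.07, 1.55 and 14.8 CPM in the naive libraries, 1.98, 49.2 and 1.05 CPM in the vehicle libraries, and 30.8, 5.11 and 1.13 CPM in the GV1001 libraries. Its highest library was vehicle replicate 2, and the 3 groups overlapped. Myh1 was at 1.60, 1.04 and 9.92 CPM in naive, 9.16, 30.3 and 1.05 CPM in vehicle, and 82.2, 14.5 and 3.40 CPM in GV1001 libraries, again with overlap. Against vehicle, the log2 fold changes with GV1001 were 1.31 ± 1.03 for Myh1 and −0.50 ± 1.23 for Myh2, with edgeR adjusted p of 0.711 and 0.922. Both turned on single libraries: without GV1001 replicate 1 they were −0.59 and −2.46, and without vehicle replicate 2 they were 2.66 and 2.95. The slow myosin Myh7 was at 5.88, 3.45 and 6.13 CPM in naive, 1.98, 5.53 and 4.88 CPM in vehicle, and 3.40, 5.11 and 5.34 CPM in GV1001 libraries, a log2 fold change of 0.18 ± 0.39. It did not follow the fast myosins, and the groups overlapped.

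**Figure D2:**
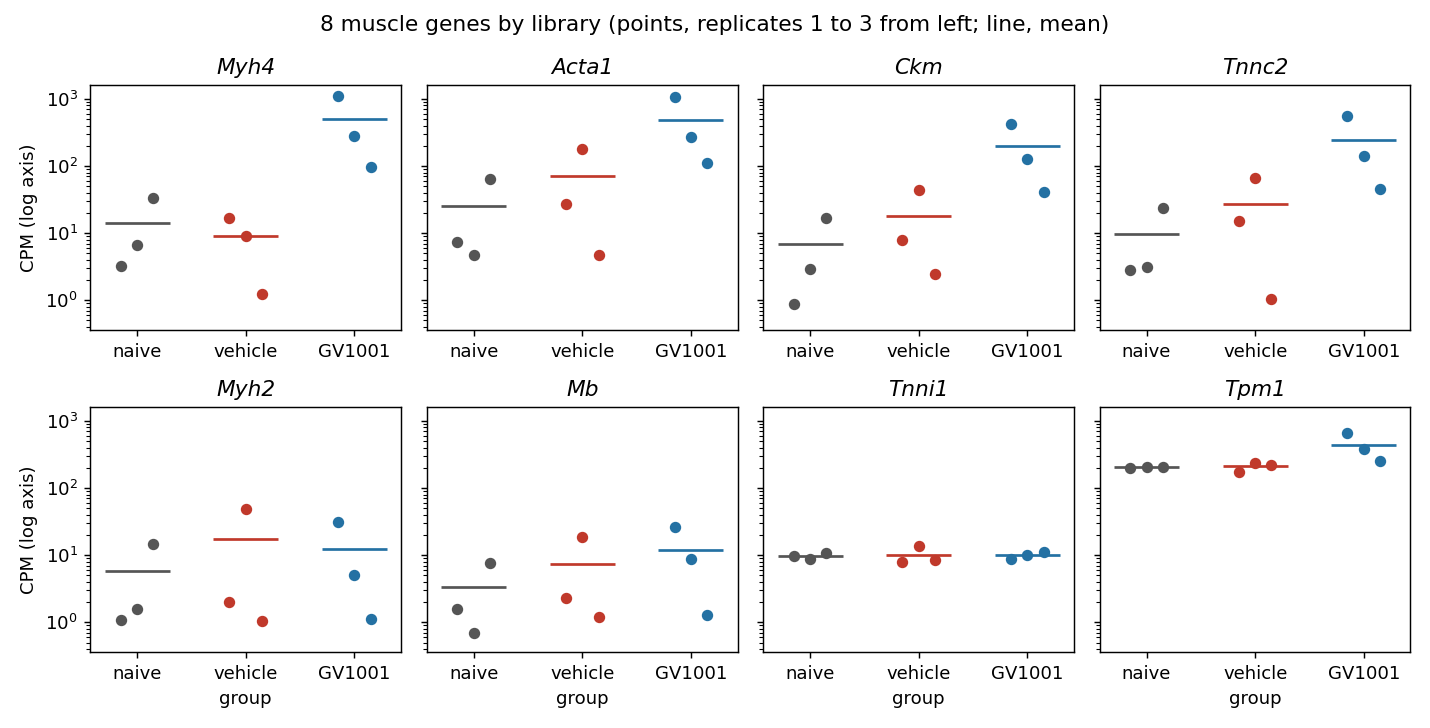
Levels of 8 muscle genes in CPM on a log axis, with a point for each library (replicates 1 to 3 from left to right) and a line at the mean of the 3 libraries of a group. Myh4, at 97.7 to 1099.8 CPM with GV1001, lies above every other library, Myh2 peaks in vehicle replicate 2 at 49.2 CPM, and Tnni1 stays between 7.9 and 13.5 CPM throughout.

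The mix of fast myosins therefore differed between libraries as well as their amount. Of all counts of Myh1, Myh2 and Myh4, Myh4 held 90.7%, 93.6% and 95.6% in the GV1001 libraries, with exact binomial 95% intervals from 89.9% to 97.0% across them. In the naive libraries it held 54.5%, 71.7% and 57.3%, on 33, 53 and 321 counts. Its share was 60.3%, 10.1% and 36.8% in the vehicle libraries, on 156, 464 and 19 counts. Vehicle replicate 2 stood apart, with an interval of 7.54% to 13.2% for Myh4, and Myh2 held 55.6% of its fast myosin counts. All 3 GV1001 libraries lay above the 6 others in Myh4 share. This split was chosen after its values were seen and was not tested. The 3 genes are close copies of each other, and how reads shared between them were counted is not given in the sources used here.

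**Figure D3:**
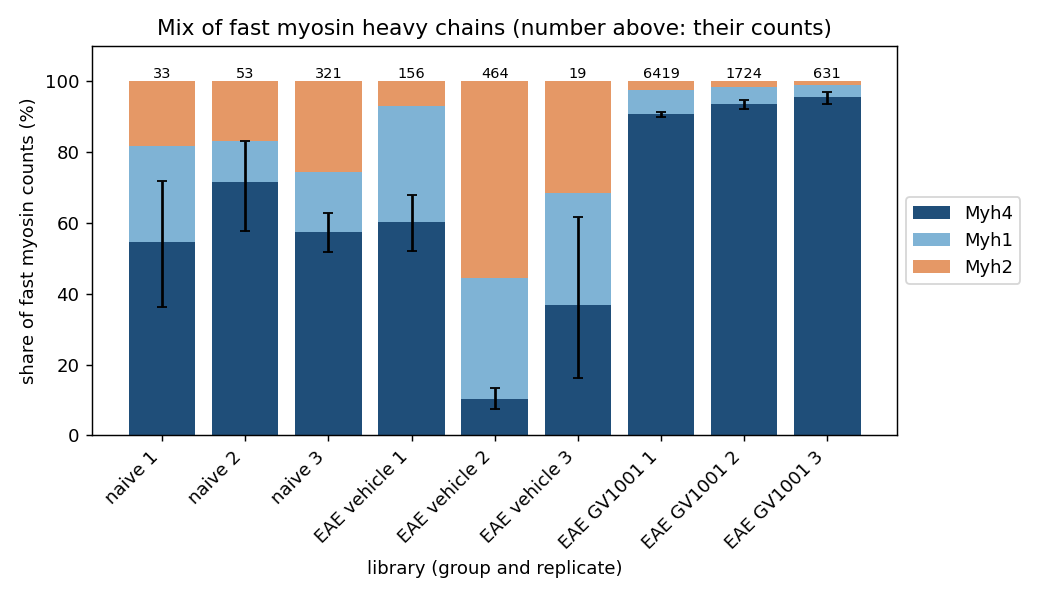
Share of Myh4, Myh1 and Myh2 in their summed counts in each library (stacked bars, percent; the summed counts stand above each bar), with the exact binomial 95% interval of the Myh4 share, which covers counting error only. Myh4 holds 90.7% to 95.6% in the GV1001 libraries and 10.1% in vehicle replicate 2, where Myh2 holds 55.6%.

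Other thick filament genes of fast fibres resembled Myh4 in their high levels with GV1001. Within the vehicle group they were highest in replicate 2, unlike Myh4. The fast regulatory light chain Mylpf was at 3.56, 3.97 and 15.5 CPM in naive, 9.88, 31.8 and 2.96 CPM in vehicle, and 329, 116 and 37.2 CPM in GV1001 libraries (log2 fold change against vehicle 3.45 ± 0.85). The fast light chain Myl1 differed by 3.55 ± 0.85. Fast myosin-binding protein C, Mybpc2, was at 1.25, 1.38 and 3.97 CPM in naive, 1.44, 3.05 and 0.523 CPM in vehicle, and 51, 24.5 and 9.55 CPM in GV1001 libraries (4.08 ± 0.73). For these 3 genes every GV1001 library lay above every vehicle library. Slow myosin-binding protein C, Mybpc1, was highest in GV1001 replicate 1 and vehicle replicate 2, at 14.0 and 13.1 CPM, and between 1.90 and 4.69 CPM in the other 7 libraries (0.03 ± 0.72). Accordingly Mybpc2 held 78.5%, 89.7% and 77.6% of the counts of the pair in the GV1001 libraries. Its share was 26.9%, 42.1% and 45.8% in naive libraries and 32.0%, 18.8% (11.2% to 28.8%) and 15.8% (3.38% to 39.6%) in vehicle libraries. Mylk2, the kinase of the regulatory light chain, was not tested for lack of counts, with 7 counts in the naive group, 15 with vehicle and 110 with GV1001.

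In the thin filament, the skeletal actin Acta1 was at 7.31, 4.66 and 64.4 CPM in naive, 27.5, 181 and 4.71 CPM in vehicle, and 1071, 268 and 111 CPM in GV1001 libraries. Vehicle replicate 2 lay above GV1001 replicate 3, so the diseased groups overlapped. The log2 fold change against vehicle was 2.78 ± 1.16, and 4.89 without vehicle replicate 2. Relative to Acta1, vehicle replicate 2 had little Myh4: Myh4 held 4.71% of the counts of the pair there, against 46.8% to 51.5% in the GV1001 libraries and 34% in naive replicate 3. Actc1, the cardiac actin that skeletal muscle makes during development and regeneration, had 0, 0 and 2 counts in the naive libraries. Vehicle libraries had 0, 1 and 3 counts of it and GV1001 libraries 43, 44 and 5 counts. GV1001 replicates 1 and 2 were thus alike in Actc1 while they differed in Acta1. The ratio of GV1001 to vehicle was 22.2 from 92 and 4 counts (95% exact interval 8.39 to 83.3, counting error only). Actc1 had too few counts for the test over all 9 libraries.

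The troponin complex, which senses calcium, is made of separate fast and slow forms. Fast troponin C, Tnnc2, was at 2.85, 3.11 and 23.6 CPM in naive, 15.1, 66.5 and 1.05 CPM in vehicle, and 557, 142 and 44.9 CPM in GV1001 libraries (log2 fold change against vehicle 3.19 ± 1.08). Fast troponin I, Tnni2, was at 0.356, 0.691 and 19.8 CPM in naive, 10.1, 51.1 and 2.09 CPM in vehicle, and 396, 74.8 and 23.8 CPM in GV1001 libraries (2.99 ± 1.15). Fast troponin T, Tnnt3, was at 3.21, 6.39 and 30.1 CPM in naive, 15.6, 56 and 3.14 CPM in vehicle, and 438, 120 and 51.3 CPM in GV1001 libraries (3.05 ± 0.96). In all 3, vehicle replicate 2 exceeded GV1001 replicate 3.

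The slow troponins did not follow. Slow troponin I, Tnni1, was at 9.80, 8.63 and 10.8 CPM in naive, 7.90, 13.5 and 8.54 CPM in vehicle, and 8.88, 10.05 and 11.01 CPM in GV1001 libraries (0.01 ± 0.24). Slow troponin T, Tnnt1, was at 0.535, 1.38 and 2.71 CPM in naive, 1.44, 6.67 and 2.27 CPM in vehicle, and 0.567, 0.176 and 1.78 CPM in GV1001 libraries (−1.93 ± 0.79, edgeR adjusted p of 0.539). Slow troponin C, Tnnc1, which the heart also uses, was at 1.96, 1.55 and 3.43 CPM in naive, 2.69, 5.72 and 2.96 CPM in vehicle, and 2.65, 1.23 and 1.94 CPM in GV1001 libraries (−0.95 ± 0.46, adjusted p of 0.565). Each slow troponin was highest in vehicle replicate 2. For Tnnc1 all 3 GV1001 libraries lay below all 3 vehicle libraries. Tnnt3 held 99.9%, 99.9% and 96.6% of troponin T counts in the GV1001 libraries. Its naive shares were 85.7%, 82.2% and 91.8%. Vehicle replicates 1 to 3 gave 91.6%, 89.4% (85.5% to 92.5%) and 58.1%, so replicate 2 did not stand apart. That library had the highest fast share outside the GV1001 group for the remaining pairs. Tnni2 held 79.1% of troponin I counts there, and Tnnc2 92.1% of troponin C counts. With GV1001 these shares were 97.8%, 88.1% and 68.4% for Tnni2, and 99.5%, 99.1% and 95.8% for Tnnc2.

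The tropomyosins, which cover actin between contractions and are used by many cell types, stood on a high cord level. Tpm1 was at 199, 203 and 206 CPM in naive, 174, 239.7 and 219 CPM in vehicle, and 669, 383 and 257 CPM in GV1001 libraries. All 3 GV1001 libraries lay above the other 6, and the log2 fold change against vehicle was 1.06 ± 0.27, with an adjusted p of 0.528 in edgeR and 0.0403 in DESeq2. For Tpm2 it was 1.52 ± 0.58, with overlap.

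Structural genes of the sarcomere were led by Ttn, at 11.2, 12.6 and 87.0 CPM in naive, 45.4, 176 and 7.5 CPM in vehicle, and 831, 219 and 91.5 CPM in GV1001 libraries. The log2 fold change against vehicle was 2.33 ± 1.05, and the groups overlapped. Nebulin, Neb, the ruler of the thin filament, differed by 2.14 ± 0.90. The M band protein Myom2 (2.77 ± 0.70) and the α-actinin of fast fibres, Actn3 (3.61 ± 0.87), had no overlap between GV1001 and vehicle libraries. Actn3 was at 6.46, 4.76 and 0 CPM in vehicle and 96.4, 30.1 and 11.01 CPM in GV1001 libraries. Actn2, the α-actinin of all fibres and of some neurons, was at −0.10 ± 0.68, with its highest levels of 9.26 and 8.77 CPM in GV1001 replicate 1 and vehicle replicate 2.

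All 4 calcium handling genes had a positive fold change with GV1001. Atp2a1, the calcium pump of fast fibres, was at 3.21, 2.93 and 19.8 CPM in naive, 12.7, 31.6 and 1.22 CPM in vehicle, and 317, 91.3 and 22.02 CPM in GV1001 libraries (3.25 ± 1.00). Casq1, which stores calcium in the reticulum, was at 3.03, 1.90 and 4.33 CPM in naive, 5.39, 6.29 and 3.31 CPM in vehicle, and 57.6, 16.9 and 7.94 CPM in GV1001 libraries (2.44 ± 0.67). Jsrp1, a protein of the junction where calcium is released, was at 1.25, 1.90 and 2.17 CPM in naive, 0.539, 0.572 and 0.174 CPM in vehicle, and 7.18, 5.82 and 2.43 CPM in GV1001 libraries (3.51 ± 0.61). Jsrp1 did not stand out in vehicle replicate 2, which had 3 counts as had replicate 1, and its 7 vehicle counts lay at or near the floor. The release channel Ryr1 differed by 1.75 ± 0.74, with overlap.

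Of the energy genes, creatine kinase Ckm, which buffers ATP, was at 0.891, 2.93 and 17.0 CPM in naive, 7.90, 43.6 and 2.44 CPM in vehicle, and 423, 126 and 41.0 CPM in GV1001 libraries (3.48 ± 1.00). Vehicle replicate 2 lay slightly above GV1001 replicate 3. Myoglobin, Mb, the oxygen store of oxidative fibres, was at 1.60, 0.691 and 7.76 CPM in naive, 2.33, 18.5 and 1.22 CPM in vehicle, and 25.9, 8.82 and 1.30 CPM in GV1001 libraries (0.71 ± 0.98, and −0.53 without GV1001 replicate 1). Mb held 29.8% (24.8% to 35%) of the counts of Mb and Ckm in vehicle replicate 2 and 31.4% (23.7% to 39.9%) in naive replicate 3, against 5.77%, 6.53% and 3.07% in the GV1001 libraries. Eno3 differed by 1.55 ± 0.56, with overlap. Pygm, which astrocytes also express, was at 81.25, 74.8 and 68.6 CPM in naive, 51.9, 66.5 and 58.9 CPM in vehicle, and 124, 83.6 and 89.1 CPM in GV1001 libraries (0.75 ± 0.16, adjusted p of 0.528 in edgeR and 0.0286 in DESeq2). Ampd1, an enzyme of muscle purine turnover, was not tested and had 2, 7 and 78 counts in the 3 groups, a ratio of 10.8 for GV1001 to vehicle (4.98 to 27.6).

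The comparison of GV1001 with vehicle asked what differed in the diseased cord given the peptide. In edgeR 0 of the 31 tested muscle genes passed at an adjusted p of 0.05, as did 0 of 15351 genes (0% called), with a smallest adjusted p of 0.528 among the muscle genes, and limma-voom called 0 of each (0%). DESeq2 called 6 muscle genes higher, namely Myh4, Mybpc2, Tpm1, Casq1, Jsrp1 and Pygm, of 10 genes called higher in all (0.0651% of those tested), and 0 lower (0.0195% of those tested). Of the 6, Mybpc2 and Jsrp1 passed the count filter only through the GV1001 libraries, which left 4 muscle genes of 7 genes in all called higher among genes with 10 counts in at least 3 naive or vehicle libraries. At an unadjusted p under 0.05 in edgeR, 21 of the 31 were higher and 1, Tnnt1, was lower, where 4.57% of all tested genes were higher and 4.51% lower. By role, the 21 were 4 of 8 thick filament genes, 6 of 9 thin filament genes, 4 of 6 structural genes, 4 of 4 calcium handling genes and 3 of 4 energy genes. They included Mybpc2, Jsrp1 and Myom2, which passed the count filter only through the GV1001 libraries. Of the tested genes, 22 had a log2 fold change above 1, as had 1.29% of all tested genes. Among the 28 muscle genes that had 10 counts in at least 3 naive or vehicle libraries, 18 were higher at this p, against 4.37% of all such genes, and their median log2 fold change was 1.65 against −0.01. Of these 28, 19 had a log2 fold change above 1, as had 123 of all 14890 such genes. Over all 34 genes, the GV1001 libraries lay wholly above the vehicle libraries for 12 and wholly below for 1, against 3.99% and 4.21% of the 26840 genes with a count. Among the 31 tested this held for 10 and 1, against 5.44% and 5.03% of all tested genes. Among the 28 it held for 7 and 1, against 789 and 772 of the 14890 such genes.

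Single libraries set the size of this difference. The median log2 fold change of the tested muscle genes was 2.14 with all libraries, 0.87 without GV1001 replicate 1 and 3.13 without vehicle replicate 2, when all 34 passed the count filter. The number higher at an unadjusted edgeR p under 0.05 was 11 of 31 without GV1001 replicate 1, instead of 21. The share of all genes at this p was not counted in that fit, so the 11 have no background beside them. The 12 genes of fast fibres had a median of 3.22, with 11 positive, and the 5 of slow fibres one of 0.01, with 3 positive. Fibre types were assigned from textbook knowledge with the values known.

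**Figure D4:**
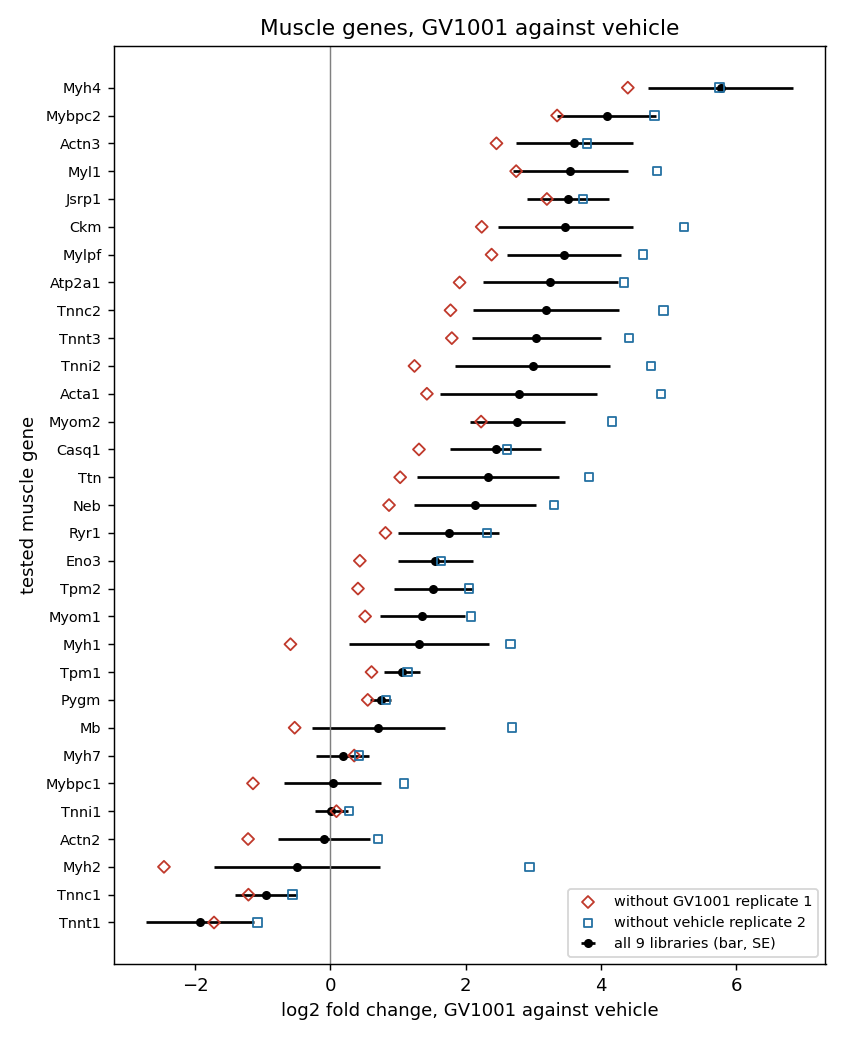
Log2 fold change of GV1001 against vehicle for the 31 tested muscle genes from the edgeR fit of all 9 libraries (black points, bars are SE), without GV1001 replicate 1 (red diamonds) and without vehicle replicate 2 (blue squares). Myh4 is at the top at 5.77 and Tnnt1 at the bottom at −1.93, and Myh2 moves from −2.46 to 2.95 with the library left out.

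Between vehicle and naive libraries, which differ by the disease, no muscle gene passed the test. edgeR, DESeq2 and limma-voom each called 0 of 31, where edgeR called 0.0195% of all tested genes higher and 0% lower, and DESeq2 5.36% and 1.86%. At an unadjusted p under 0.05 in edgeR 0 muscle genes were higher and 2 lower, beside 11.3% and 8.07% of all genes. The 2 were Jsrp1 (−2.04 ± 0.76, adjusted p of 0.162) and Pygm (−0.37 ± 0.16, adjusted p of 0.223), the only 2 of the 34 whose groups did not overlap. Both were wholly lower with vehicle, as were 9.5% of tested genes, while 0 muscle genes and 13.6% of tested genes were wholly higher. A log2 fold change above 1 was found for 12 of the 31 tested muscle genes and for 6.68% of all genes. This count was 2 of 34 without vehicle replicate 2, 21 of 34 without naive replicate 3, and 3 and 4 of 34 without naive replicates 1 and 2. The share of all genes was not counted in those fits. Acta1 was at 1.44 ± 1.24, Myh2 at 1.52 ± 1.37 and Myh4 at −0.69 ± 1.19. Without vehicle replicate 2, Acta1 was −0.68 and Myh2 −1.94, and without naive replicate 3 Myh4 was 0.85. The median of the tested muscle genes was 0.77. Over all 34, which passed the filter then, it was −0.29 without vehicle replicate 2 and 1.77 without naive replicate 3.

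Against naive libraries, the GV1001 libraries had higher values of most muscle genes; this comparison uses the same GV1001 libraries as that with vehicle. edgeR called 0 of 31 (0% of all genes) and limma-voom 0, while DESeq2 called 6 higher (Casq1, Mybpc2, Tpm1, Myh4, Myom2 and Mylpf), with 0.228% of all genes called higher, and 0 lower, with 0.0261% of all genes. Mybpc2 and Myom2 passed the count filter only through the GV1001 libraries, which left 4 such calls. Unadjusted edgeR p-values under 0.05 were found for 23 of 31, all higher, against 4.35% of all genes higher and 2.95% lower. Of the 28 with enough counts outside the GV1001 group this held for 20, against 4.02% of all such genes. Log2 fold changes above 1 were found for 24 of 31, against 4.27% of all genes. Among the 28 they were found for 21, against 479 of 14890 such genes. Over all 34 genes, 22 had every GV1001 library above every naive library, where this held for 7% of genes with a count. Among the 31 tested, 19 did, against 10.2% of tested genes, and 0 lay wholly below, against 6.7%. Among the 28, 16 did, against 1465 of the 14890 such genes, and 0 lay wholly below, against 1029. Log2 fold changes were 5.08 ± 1.01 for Myh4, 4.80 ± 1.12 for Ckm, 4.36 ± 0.92 for Mylpf, 4.22 ± 1.27 for Acta1, 3.64 ± 0.69 for Mybpc2, 3.18 ± 0.74 for Myom2, 3.10 ± 0.73 for Casq1, 1.08 ± 0.27 for Tpm1 and 0.37 ± 0.15 for Pygm. Without GV1001 replicate 1 the median of the tested muscle genes was 1.81 instead of 2.95.

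Muscle genes outside the set gave a similar picture. Of 43 further muscle genes, 28 were tested, and the median log2 fold change with GV1001 was 1.38 against vehicle and 2.35 against naive. In these comparisons 0 passed in any of the 3 tools, where DESeq2 called 0.0651% and 0.228% of all tested genes higher. At an unadjusted edgeR p under 0.05, 11 were higher against vehicle and 20 against naive, beside 4.57% and 4.35% of all genes. Some of the 28 passed the count filter only through the GV1001 libraries. Among them were Myoz1, Pgam2, Hrc and Smpx, which are part of both the 11 and the 20, so the shares of all genes are not a like background. Of the 43, 33 were highest in GV1001 replicate 1. Trdn, which anchors the calcium store, was at 8.77 CPM in vehicle replicate 2 and 63.1, 24.9 and 7.61 CPM in the GV1001 libraries (2.90 ± 0.81 against vehicle). The most abundant, the calcium buffer Pvalb of fast fibres and of spinal interneurons, was at 155 to 237 CPM in the naive and vehicle libraries and 635, 275 and 276 CPM with GV1001 (1.09 ± 0.29). Some slow fibre genes, chosen after their values were seen, were highest in vehicle replicate 2: the slow light chains Myl2 and Myl3 had 34 and 23 counts there and 1 to 7 elsewhere, and Sln, a regulator of the calcium pump, had 15 there and 0 to 3 elsewhere. Others were not: Casq2 was at 3.05 CPM there and 3.03 to 4.88 CPM elsewhere. Within the set the slow troponins were highest in that library, but Myh7 and Mybpc1 were not.

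Genes of the muscle synapse and of muscle stem cells were near the floor. Of 8 genes of the muscle side of the neuromuscular junction, 2 were tested, and their sum was 2.85 to 7.75 CPM over the 9 libraries. The acetylcholine receptor subunit Chrng was at 0 counts in all libraries, which allows up to 0.572 CPM, and Chrnd at 0 in all but naive replicate 3. Of 8 muscle regulators and developmental myosins, 0 had enough counts to be tested. Myf6, the regulator kept on in mature fibres, had 11 counts in GV1001 replicate 1, 3 in replicate 2 and 0 or 1 elsewhere. The fetal myosins Myh3 and Myh8 had 0 to 7 counts. The 8 cardiac genes summed to 6.42 to 14.4 CPM, and 3 were tested, with 0 at an unadjusted edgeR p under 0.05 against vehicle (4.57% of all genes higher, 4.51% lower). Tnnt2, Tnni3 and Myl4 held most of these counts, at 2 to 41 a library, the atrial light chain Myl7 was at 0 counts in every library and the cardiac myosin Myh6 at 0 to 2 counts. In GV1001 replicate 1, the highest muscle library, the cardiac sum was the lowest of the 9. The 8 smooth muscle genes summed to 131 to 196 CPM, with overlap between vehicle and GV1001 libraries.

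Markers of other tissues around the cord were compared with muscle library by library, and some peaked in the same libraries and others did not. The 12 genes listed for Schwann cells of nerve roots summed to 1484, 975 and 1518 CPM in naive, 583, 1597 and 2502 CPM in vehicle, and 2409, 2533 and 3518 CPM in GV1001 libraries, all 12 with counts in each. Of these, muscle also makes Mlip, and oligodendrocytes also express Sox10. Against vehicle, 6 of the 12 were higher with GV1001 at an unadjusted edgeR p under 0.05, against 4.57% of all genes, with a median log2 fold change of 0.93. Mlip was 1 of the 6, at 14.7, 7.23 and 17.2 CPM in the GV1001 libraries. Against naive libraries 10 of the 12 were higher with GV1001 at this p, against 4.35% of all genes, with a median of 1.14. DESeq2 called 2 of the 12 higher in that comparison, beside 0.228% of all tested genes. Vehicle replicate 3, lowest in muscle, was high in Schwann genes, and GV1001 replicate 3, lowest of its group in muscle, was highest. The 12 sensory ganglion genes summed to 1398 to 1698 CPM in naive, 1035 to 1326 CPM in vehicle and 1269 to 1672 CPM in GV1001 libraries. Most of this sum was the neurofilament Nefh, which cord neurons also express, at 955 to 1327 CPM. All 11 tested ganglion genes had a positive log2 fold change with GV1001 against vehicle, with a median of 1.80, and 5 were higher at an unadjusted edgeR p under 0.05, against 4.57% of all genes. Of these 5, Scn10a, Avil and Mrgprd passed the count filter only with the GV1001 libraries, so the share of all genes is not a like background. In vehicle against naive libraries all 11 were negative, with a median of −1.76. With GV1001 against naive the median was 0.02, with 6 positive, and 0 were higher or lower at this p, against 4.35% and 2.95%. DESeq2 called Scn11a higher with GV1001 than with vehicle (adjusted p of 9.88e-05), as it did 0.0651% of tested genes. Scn11a had 0 counts in every vehicle library and in GV1001 replicate 1, and passed the count filter only with the GV1001 libraries. The sensory neuron channel Scn10a was at 41.1 CPM in naive replicate 2, 31.6 and 8.26 CPM in GV1001 replicates 2 and 3, and 0 to 0.381 CPM elsewhere, GV1001 replicate 1 included. Adipocyte genes (11 listed) summed to 16.0 to 28.3, 11.9 to 30.1 and 34.7 to 60.4 CPM in the 3 groups, with Car3, which slow muscle also makes, at 179 of the 312 counts of GV1001 replicate 1. Bone marrow granule genes (8 listed) summed to 13.0, 42.6 and 24.7 CPM in naive, 42.4, 73.9 and 41.0 CPM in vehicle, and 108, 60.1 and 97.7 CPM in GV1001 libraries. Like that of muscle, their sum was highest in GV1001 replicate 1 and, within the vehicle group, in replicate 2. Myeloid cells that enter inflamed cord can also carry these transcripts, and the sources were not told apart. Chil3 was highest in vehicle replicate 1, at 13.6 CPM. DESeq2 called it higher in vehicle than in naive libraries (adjusted p of 0.00159), as it did 5.36% of tested genes. Of the 6 granule genes tested, all 6 were higher with GV1001 than in naive libraries at an unadjusted edgeR p under 0.05, against 4.35% of all genes, and 2 were higher than with vehicle, against 4.57%. Mpo, among both the 6 and the 2, passed the count filter only with the GV1001 libraries. Red blood cell genes (5 listed) summed to 4859 CPM in vehicle replicate 2 and to 254 to 720 CPM in the other 8 libraries, so that they too were highest in the top muscle library of the vehicle group. The part of these tissues in the muscle values was not tested, and RNA was extracted by either of a pair of methods, with no label of which library had which.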

How the data were processed

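RNA of 9 spinal cord samples was sequenced from QuantSeq 3′ libraries, per the labels' protocols. The authors deposited raw read counts per gene symbol. FastQC, STAR, HTSeq and the build GRCm39 are named in the submitters' processing notes without versions. The annotation, the strand setting, the treatment of reads shared by gene copies and the use of molecular identifiers are not given in the sources used here. Single-library files held the same values as the joint table. Groups were taken from sample titles. The 34 genes, the other lists and the roles were chosen with earlier results of these data known.

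Genes were filtered with filterByExpr (minimum count 10), which left 15351, normalised by TMM and tested with edgeR 4.0.16 (quasi-likelihood, two-sided). All 9 libraries entered a model of the 3 groups, with Benjamini-Hochberg adjustment over all tested genes (threshold 0.05). Standard errors were derived from the F statistic. DESeq2 1.42.0 and limma-voom (limma 3.58.1, R 4.3.3) were run on the same genes. The procedure was tested on simulated counts with 200 changed genes. Naming followed a fixed rule: any of the 34, with library values for myosin heavy chains, troponins, actins, Ckm and the most abundant of each role. Library values of Mylpf, Mybpc2, Actn3, Casq1, Jsrp1 and Mb, and genes outside the set other than Pvalb, were chosen after their values were seen. Figures used matplotlib 3.10.9. By GENCODE M21 on an earlier build, 19 of the 34 genes overlap a gene on the opposite strand, among them Myh1, Myh2 and Myh7, and without a stated strand setting their reads cannot be told apart. Of 9 pairs of libraries with the same replicate number, 2 deviated together from their group means with a correlation above 0.1 (range −0.50 to 0.25), so the numbers were not taken as pairs. The 3 comparisons share libraries.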

Additional observations from a re-analysis of the deposited data

How the results depend on the processing

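With all 9 libraries, 0 muscle genes were called in edgeR in the 3 comparisons, nor under RLE factors, library totals only, no filter, the older quasi-likelihood form, limma-voom, only the 2 groups compared, a threshold of 0.1 or the replicate block, under which 0 muscle genes were called in each comparison. DESeq2 called 6 muscle genes and 13 genes in all in GV1001 against vehicle, and 6 and 39 in GV1001 against naive. Leaving out 1 library gave 0 to 1 muscle genes in these 2 comparisons (1, Actc1, without GV1001 replicate 3, which passed the count filter only through the remaining GV1001 libraries) and 0 in vehicle against naive. All genes called then ranged from 0 to 8 in GV1001 against vehicle, from 0 to 3 in GV1001 against naive and from 0 to 1652 in vehicle against naive, where it was 3 with all libraries and 1652 without vehicle replicate 2. Vehicle against naive gave 20 genes with library totals only, 543 without a filter, 1109 in DESeq2, 862 at a threshold of 0.1 and 0 in limma-voom or with the replicate block. GV1001 against naive gave 1 with library totals only, without a filter, in the older form and at 0.1, and 5 with only these 2 groups. The sign of GV1001 against vehicle turned for Myh2 in limma-voom (0.22) and for Mybpc1 in limma-voom (−0.039) and with the replicate block (−0.012). Leaving out 1 library gave ranges that crossed 0 for Myh1 (−0.59 to 2.66), Myh2 (−2.46 to 2.95), Mybpc1 (−1.15 to 1.09), Myh7 (−0.13 to 0.42), Tnni1 (−0.11 to 0.27), Actn2 (−1.22 to 0.70) and Mb (−0.53 to 2.68), and in vehicle against naive for Myh4 (−1.58 to 0.85), Acta1 (−0.68 to 3.53) and Myh2 (−1.94 to 3.64). The cause was not tested. With 3 libraries a group and totals of 5247246 to 6174870, genes under about 10 counts in most libraries could not be tested.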

Other observations

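Among the adipocyte genes, the brown fat markers Ucp1 and Cidea were highest in GV1001 replicate 3, which also had the largest total count. Ucp1, the uncoupling protein of brown fat, had 53 counts in GV1001 replicate 3, 18 in naive replicate 2 and 0 to 5 in the other 7 libraries. Cidea, a lipid droplet protein of brown fat that the cord also expressed, had 86 counts in GV1001 replicate 3 and 24 to 57 elsewhere. Scaled to totals this was 13.9 CPM against 4.31 to 9.84 CPM, so Cidea stood out less than Ucp1. The highest muscle library, GV1001 replicate 1, had 3 counts of Ucp1 and 34 of Cidea, so these genes and the muscle genes did not peak in the same library. Both were picked after their values were seen, and no test was made.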
